A study of Homo sapiens with 8 samples.

Results

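The interleukin-1 (IL-1) group described here holds 8 genes of the 54628 in the count table, chosen by name for their place in IL-1 family signalling. They are the agonist ligands IL1A and IL1B, the antagonist IL1RN, the ligand IL33, the receptor chains IL1R1, IL1RAP and IL1RL1, and the kinase IRAK2. Messenger RNA was sequenced from IMR90 cells, a fibroblast line from human lung that here carries telomerase (hTERT). Every group, the controls included, carried the pinducer20 construct that makes Flag-tagged YAP5SA when doxycycline is given, and was grown at 3% oxygen. YAP5SA is a form of the coactivator YAP in which the serines that the Hippo kinases phosphorylate are replaced, so that it stays active.

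The 4 groups had 2 libraries each. Senescent cells with doxycycline had bleomycin, a drug that breaks DNA, at 10 ug/ml for 24 hours and were taken 9 days later. They had doxycycline at 1 ug/ml over the final 11 days, so that it began before the bleomycin. For doxycycline in senescent cells, changes on the way into senescence and changes in cells already senescent thus cannot be told apart. Senescent cells without doxycycline had the same bleomycin. Proliferating cells with doxycycline had 1 ug/ml for 11 days and no bleomycin, and proliferating cells without doxycycline had neither. Cells given doxycycline but lacking the construct were not analysed here, so the drug and YAP5SA cannot be told apart. The labels do not say whether the cells were a clone or a pool, or whether replicates were separate cultures, so p-values measure only the spread between these libraries.

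IL-1 alpha and IL-1 beta bind the receptor IL1R1, which then recruits the accessory chain IL1RAP and, inside the cell, MYD88 and IRAK kinases that lead to NF-kappaB. IL1RN occupies IL1R1 without signalling. IL-33 uses its own receptor, IL1RL1 (ST2), with the same accessory chain. In senescent fibroblasts, membrane-bound IL-1 alpha is known as an upstream inducer of the secreted inflammatory factors such as IL-6 and IL-8.

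Total counts ran from 33627708 to 39692162 per library. Levels are CPM, read counts per 1e+06 counts of the library, scaled by edgeR's TMM factors, and a change is called at an adjusted p of 0.05 in edgeR's quasi-likelihood test over 17155 genes. YAP1, whose count sums the endogenous gene and any reads of the construct that align to it, stood at 290.4 and 286 CPM in senescent cells with doxycycline and at 190.2 and 223 CPM in senescent cells without it. In proliferating cells it stood at 190.1 and 238 CPM with doxycycline and at 198 and 195 CPM without. It was higher with doxycycline in senescent cells (log2 0.48, adjusted p = 0.00140 in edgeR's test) and not called in proliferating cells (log2 0.12, adjusted p = 0.431), where the groups overlapped. All 10 fibroblast markers examined were above 1 CPM. Doxycycline in senescent cells lowered 5 of them, COL1A1 and COL1A2 among them, raised LUM (log2 1.87) and DCN (log2 0.25) and left 3 not called. Their summed level stood at 21602 to 26277 CPM in senescent cells with doxycycline and 34339 to 36738 CPM in senescent cells without, and at 20569 to 21211 CPM in proliferating cells with doxycycline and 29512 to 29804 CPM without. The part of these markers, and of the others given at the end, in the results was not tested. In bulk RNA, fewer cells that express a gene and less RNA of it per cell cannot be told apart.

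Of the 8 genes, 6 passed the filter on low counts and 2, IL33 and IL1RL1, did not. IL1RN passed only through its senescent libraries, so that its differences were fixed by the filter, and it is left out of the counts that follow. In senescent over proliferating cells without doxycycline the other 5 were called, 5 higher and 0 lower, where 59.2% of all genes tested were called, 29.8% higher and 29.4% lower. With doxycycline, 3 were higher and 1 lower in senescent cells, beside 55.5% of all genes called, 26.8% higher and 28.7% lower. Doxycycline in senescent cells lowered 5 and raised 0, beside 46.3% of all genes called, 22.6% higher and 23.8% lower. In proliferating cells it lowered 2 and raised 0, beside 23.0% of all genes called, 12.6% higher and 10.4% lower.

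**Figure D1:**
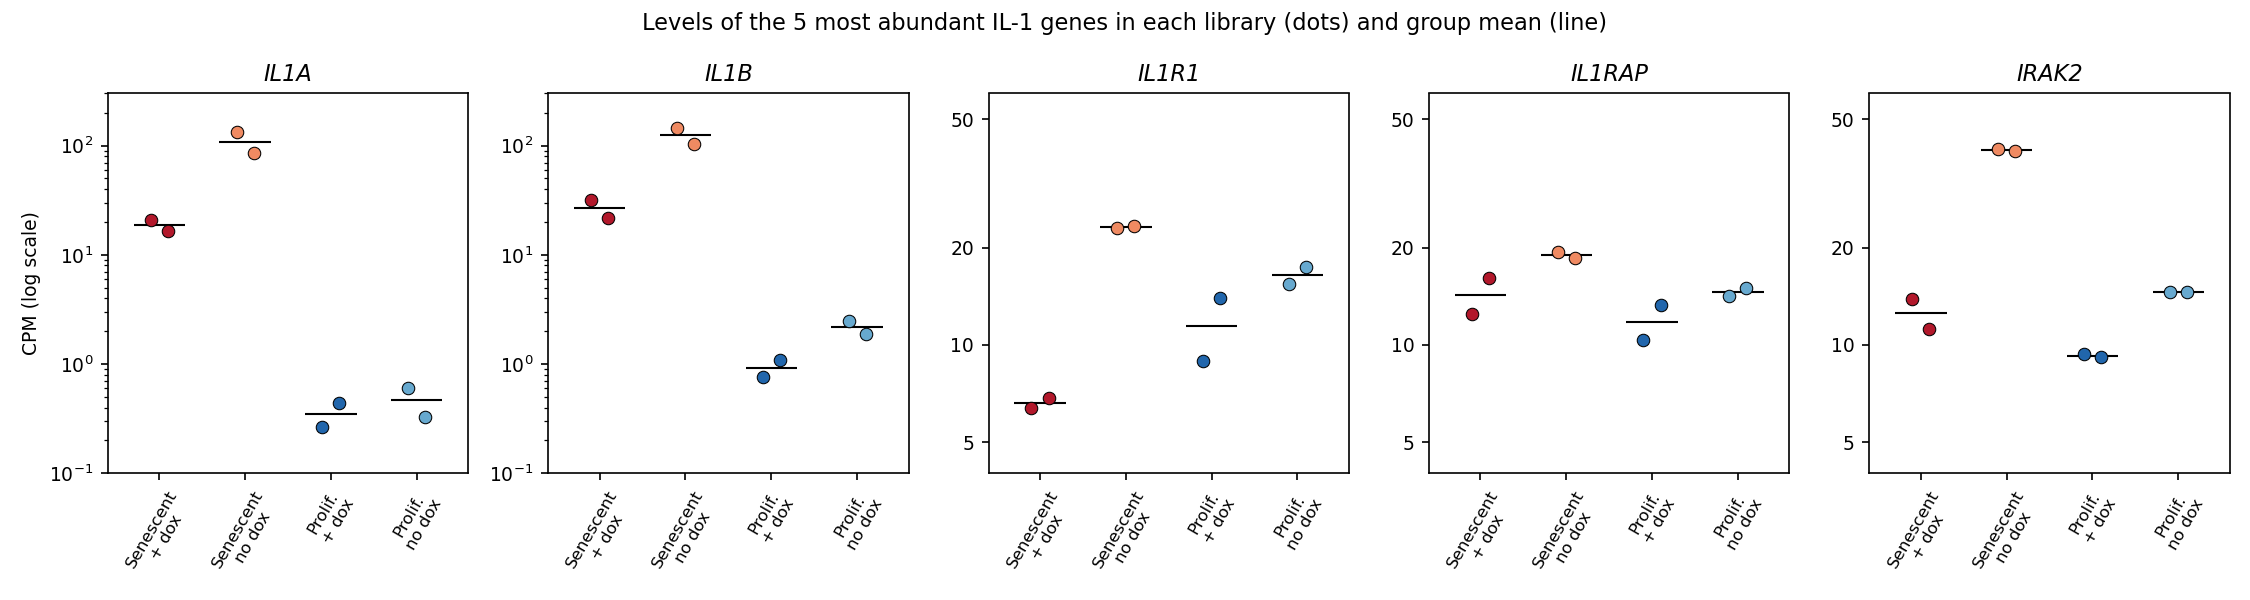
CPM (log axes, whose ranges differ between ligands and the other genes) of IL1A, IL1B, IL1R1, IL1RAP and IRAK2 in the 8 libraries, 1 dot per library, with the group mean as a line. IL1A and IL1B were at 84.8 CPM or above in senescent cells without doxycycline, between 16.4 and 31.8 CPM in senescent cells with it and at 2.46 CPM or below in proliferating cells, while IL1R1 was lowest in senescent cells with doxycycline.

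Among the ligands, IL1A and IL1B were nearly silent in proliferating cells, very high in senescent cells and much lower, though far from silent, in senescent cells with doxycycline. IL1A encodes IL-1 alpha, which signals already as a precursor and can stay on the cell surface (chromosome 2, 112773915 to 112784590, minus strand, GRCh38). It stood at 20.7 and 16.4 CPM in senescent cells with doxycycline and at 133 and 84.8 CPM in senescent cells without it. Proliferating cells had 0.265 and 0.437 CPM with doxycycline and 0.610 and 0.326 CPM without. Both senescent groups stood above every proliferating library and did not overlap each other, while the proliferating groups overlapped.

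IL1A was 231-fold higher in senescent cells than in proliferating cells without doxycycline (log2 change 7.85, SE 0.40, adjusted p = 1.29e-05 in edgeR's test). With doxycycline in both states it was 51.5-fold higher in senescent cells (log2 5.69, SE 0.46, adjusted p = 0.000123). Doxycycline left 17.0% of the mean senescent level, 18.6 ± 3.04 CPM against 109 ± 34.2 CPM (SD, n = 2 each). That fall was 5.86-fold (log2 -2.55, SE 0.26, 95% interval -3.21 to -1.90, adjusted p = 0.000571). In proliferating cells the change of IL1A was log2 -0.39 with a 95% interval from -2.46 to 1.69 (adjusted p = 0.799), at 9 and 18 counts with doxycycline and 25 and 13 counts without.

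IL1B encodes IL-1 beta, whose precursor is cut by caspase-1 before it signals (chromosome 2, 112829751 to 112836903, minus strand). It stood at 31.8 and 21.9 CPM in senescent cells with doxycycline and at 145 and 104 CPM in senescent cells without it. The proliferating libraries were at 0.765 and 1.09 CPM with doxycycline and at 2.46 and 1.88 CPM without. No library of a group overlapped with a library of another group, in the order proliferating with doxycycline, proliferating, senescent with doxycycline and senescent.

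The rise of IL1B was 57.1-fold in senescent over proliferating cells without doxycycline (log2 5.84, SE 0.31, adjusted p = 9.87e-06 in edgeR's test) and 28.5-fold with it (log2 4.83, SE 0.36, adjusted p = 5.99e-05). Doxycycline in senescent cells left 21.6% of the mean level, a 4.62-fold fall (log2 -2.21, SE 0.24, adjusted p = 0.000575). In proliferating cells the change was log2 -1.20 (SE 0.47, 95% interval -2.36 to -0.05) and was not called (adjusted p = 0.132). DESeq2 called it (log2 -1.24, adjusted p = 0.00728), as did edgeR on only the 4 libraries compared (0.0182) or without robust estimation (0.0292). With any 1 library left out, this change of IL1B ran from log2 -1.50 to -0.99.

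The ligands were also compared within libraries, where scaling plays no part. There were 1.53 and 1.34 counts of IL1B per count of IL1A in senescent cells with doxycycline (95% exact binomial intervals 1.40 to 1.67 and 1.20 to 1.49). In senescent cells without doxycycline there were 1.09 and 1.22 (1.05 to 1.13 and 1.16 to 1.29). In proliferating cells there were 2.89 and 2.50 with doxycycline and 4.04 and 5.77 without, with wide intervals because IL1A had at most 25 counts. IL1A thus had a larger share of the pair in every senescent library than in any proliferating library. Per kilobase of annotated exon, a scale on which levels of different genes can be compared, the mean level in senescent cells without doxycycline was 76.2 CPM per kb for IL1B and 51.3 CPM per kb for IL1A. On the same scale IRAK2 was at 11.5, IL1R1 at 3.67 and IL1RAP at 1.90 CPM per kb. Which isoforms were expressed is not known, so these lengths are approximate.

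**Figure D2:**
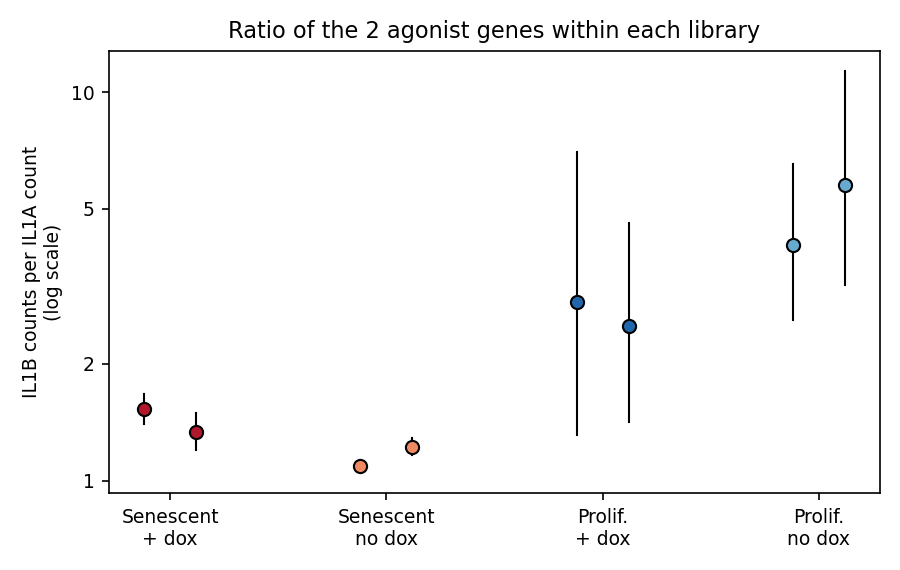
Counts of IL1B per count of IL1A (log axis) in each library, 1 dot per library, with exact binomial 95% intervals that cover counting error only. The ratio was 1.53 and 1.34 in senescent cells with doxycycline, 1.09 and 1.22 in senescent cells without it and between 2.50 and 5.77 in proliferating cells.

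The promoters of IL1A, IL1B and IRAK2 are shown because these genes shared the direction of 3 calls. They were higher in senescent cells without and with doxycycline, and lower with doxycycline in senescent cells. Over the 8 libraries IRAK2 was less like IL1A (Pearson r 0.774) than IL1B was (0.992). They run from 250 bases before to 50 bases after the start site (RefSeq, GRCh38.p14, 5′ to 3′ on the strand of the gene), and IL1A has a further RefSeq start in an overlapping window. Capitals mark matches to any of 4 short motifs searched on both strands: TGANTCA for AP-1, TTNNGNAA for C/EBP, GGG, any 5 letters and CC for NF-kappaB (kappaB) and GGAATG for TEAD, the partner of YAP.
IL1A (chr2:112784444-112784743, minus strand): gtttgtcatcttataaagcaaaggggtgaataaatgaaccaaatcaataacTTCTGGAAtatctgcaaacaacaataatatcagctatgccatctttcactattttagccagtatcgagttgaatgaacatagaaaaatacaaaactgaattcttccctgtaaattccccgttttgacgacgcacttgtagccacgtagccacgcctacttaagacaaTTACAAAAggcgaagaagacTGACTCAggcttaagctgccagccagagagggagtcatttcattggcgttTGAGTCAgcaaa
IL1B (chr2:112836730-112837029, minus strand): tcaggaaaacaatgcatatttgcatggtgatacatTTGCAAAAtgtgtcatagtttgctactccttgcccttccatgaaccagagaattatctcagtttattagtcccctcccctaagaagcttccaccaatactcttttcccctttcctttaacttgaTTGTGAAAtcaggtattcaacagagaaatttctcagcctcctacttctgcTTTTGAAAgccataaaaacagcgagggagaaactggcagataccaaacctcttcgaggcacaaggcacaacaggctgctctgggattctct
IRAK2 (chr3:10164669-10164968, plus strand): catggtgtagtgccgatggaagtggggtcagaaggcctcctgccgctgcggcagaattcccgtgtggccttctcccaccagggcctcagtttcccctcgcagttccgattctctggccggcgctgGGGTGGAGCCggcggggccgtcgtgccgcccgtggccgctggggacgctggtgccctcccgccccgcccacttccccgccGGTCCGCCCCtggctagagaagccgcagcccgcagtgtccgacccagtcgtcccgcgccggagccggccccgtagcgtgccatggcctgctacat

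The IL1A window held an AP-1 match on each side of the start site, at -12 to -6 and at 38 to 44 counted from the start base as 0, and 2 C/EBP matches. The IL1B window held 3 C/EBP matches and no AP-1 match. The IRAK2 window held 2 kappaB matches, and none of the matches in these windows overlapped another. Of 35116 promoters of this length, 7.71% held the AP-1 letters, 36.8% the C/EBP letters, 58.7% the kappaB letters and 14.0% the TEAD letters. The TEAD letters were in none of the windows of the 8 genes except 1 of the 4 windows of IL1R1. A match is a run of letters and not a measured binding site, and the absence of letters in these short windows says nothing of a factor's binding.

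IL1RN, the receptor antagonist, and IL33, a nuclear cytokine released from damaged cells, had no counts in any of the 4 proliferating libraries (chromosome 2, 113107214 to 113134016, and chromosome 9, 6215786 to 6257983, both plus strand). IL1RN had 8 and 5 counts in senescent cells with doxycycline and 15 and 11 counts in senescent cells without it. Against a floor of 3 counts over the group, IL1RN was at least 10.2-fold higher in senescent than in proliferating cells without doxycycline and at least 4.34-fold higher with it. These are bounds with no test, since the filter kept IL1RN through the senescent libraries alone. Between senescent groups its ratio of CPM was 0.457 with over without doxycycline (95% counting interval 0.216 to 0.922). That interval covers counting error only, and the fitted change was log2 -1.11 (95% interval -2.46 to 0.23). IL1RN passed the filter only through the senescent group without doxycycline, so the direction of this fall was fixed by the filter and no test of it is read. The antagonist therefore stood far below the agonists, at 0.163 CPM per kb in senescent cells without doxycycline.

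IL33 had 3 and 4 counts in senescent cells with doxycycline and 8 and 16 counts in senescent cells without it. It was at least 9.43-fold higher in senescent than in proliferating cells without doxycycline and at least 2.34-fold higher with it, against the same floor. The ratio of IL33 with over without doxycycline in senescent cells was 0.267 (95% counting interval 0.0970 to 0.638). With no filter on low counts, IL33 would still enter a test of senescent over proliferating cells only through its senescent libraries. Those differences are therefore bounds, and no test of them is read. Its doxycycline change in senescent cells was not called with no filter (adjusted p = 0.119, edgeR).

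IL1RL1, the receptor for IL-33, was at the edge of detection (chromosome 2, 102311502 to 102352037, plus strand). It had 7 and 3 counts in senescent cells with doxycycline, 8 and 12 in senescent cells without it, 1 and 2 in proliferating cells with doxycycline and 1 and 1 without. The ratio of senescent over proliferating cells was 11.8 without doxycycline (95% counting interval 2.86 to 104) and 3.34 with it (0.860 to 18.9). The ratio with over without doxycycline in senescent cells was 0.457 (0.191 to 1.02). IL1RL1 shares 95 annotated exon bases with IL18R1 on the same strand, so some of these few reads are uncertain, and the membrane and the soluble forms of the receptor are summed.

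**Figure D3:**
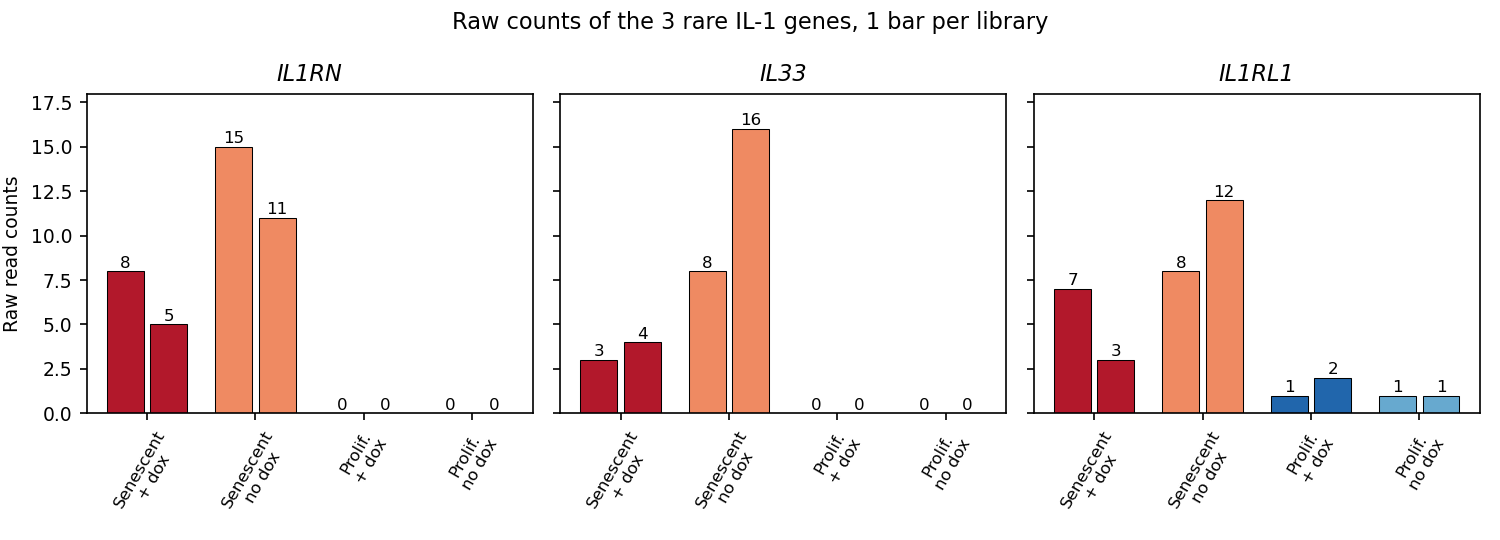
Raw read counts (linear axis from 0) of IL1RN, IL33 and IL1RL1, 1 bar per library with its count above it. IL1RN and IL33 had 0 counts in all 4 proliferating libraries, and the 3 genes had between 8 and 16 counts in senescent libraries without doxycycline and between 3 and 8 in those with it.

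Of the receptor chains, IL1R1 had its largest change with doxycycline in senescent cells. IL1R1 binds both agonists and the antagonist (chromosome 2, 102064544 to 102179874, plus strand). It stood at 6.36 and 6.82 CPM in senescent cells with doxycycline and at 23.0 and 23.4 CPM in senescent cells without it. In proliferating cells it stood at 8.91 and 14.0 CPM with doxycycline and at 15.5 and 17.5 CPM without. The 4 groups did not overlap, and the order from low to high was senescent with doxycycline, proliferating with doxycycline, proliferating and senescent.

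Doxycycline in senescent cells lowered IL1R1 by 3.52-fold (log2 -1.82, SE 0.17, adjusted p = 2.24e-06 in edgeR's test), to 28.4% of its mean level. IL1R1 shares 11 annotated exon bases with an antisense gene. In proliferating cells it was lower by 1.43-fold (log2 -0.52, SE 0.16, adjusted p = 0.0363). The doxycycline changes differed between the states by log2 -1.30 (SE 0.23, adjusted p = 0.00202 in edgeR's test of the interaction, where 19.9% of all genes were called, 8.08% higher and 11.8% lower, and 2 of the group, IL1R1 and IRAK2, both lower). The same term states the difference of the bleomycin changes. IL1R1 was 1.41-fold higher in senescent over proliferating cells without doxycycline (log2 0.50, SE 0.16, adjusted p = 0.0159) and 1.75-fold lower with it (log2 -0.80, SE 0.17, adjusted p = 0.00147). The call of the fall in proliferating cells was lost without proliferating replicate 1 (adjusted p = 0.0695) or 2 (0.226), without proliferating replicate 1 with doxycycline (0.223) without any 1 of the senescent libraries (0.0642 to 0.0736) and on only the 4 libraries compared (0.0958). The call of the rise without doxycycline was lost without proliferating replicate 1 (0.116), senescent replicate 1 (0.0703) or 2 (0.0860), and with total counts as the only scaling (0.118).

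IL1RAP, the accessory chain shared by the receptors for IL-1 and IL-33, had the smallest changes of the 5 more abundant genes (chromosome 3, 190514051 to 190659750, plus strand). It stood at 12.4 and 16.1 CPM in senescent cells with doxycycline and at 19.3 and 18.5 CPM in senescent cells without it. Proliferating cells had 10.3 and 13.2 CPM with doxycycline and 14.2 and 15.0 CPM without. The senescent libraries without doxycycline were above all others, and the remaining groups overlapped except that both proliferating libraries with doxycycline were below both without.

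IL1RAP was 1.30-fold higher in senescent over proliferating cells without doxycycline (log2 0.37, SE 0.13, adjusted p = 0.0238 in edgeR's test) and 1.33-fold lower with over without doxycycline in senescent cells (log2 -0.41, SE 0.13, adjusted p = 0.0204). Neither the bleomycin change with doxycycline (log2 0.27, 95% interval -0.02 to 0.56, adjusted p = 0.106) nor the doxycycline change in proliferating cells (log2 -0.30, adjusted p = 0.125) was called. The rise was lost with total counts only (adjusted p = 0.218) and without proliferating replicate 1 (0.131) or 2 (0.0610) or senescent replicate 1 (0.102) or 2 (0.0550). The fall in senescent cells was lost with total counts only (0.152), without senescent replicate 1 (0.0880) and without senescent replicate 1 with doxycycline (0.271). The bleomycin change with doxycycline was called without senescent replicate 1 with doxycycline (log2 0.45, adjusted p = 0.0269) and without proliferating replicate 2 with doxycycline (log2 0.46, adjusted p = 0.0199). The doxycycline change in proliferating cells was called without that last library (log2 -0.50, adjusted p = 0.0256). IL1RAP shares 535 annotated exon bases with a long noncoding RNA on the same strand.

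The chains of the receptor pair therefore stood in different proportions. There were 1.96 and 2.36 counts of IL1RAP per count of IL1R1 in senescent cells with doxycycline and 0.839 and 0.791 in senescent cells without it. In proliferating cells there were 1.16 and 0.946 with doxycycline and 0.916 and 0.859 without. The senescent libraries with doxycycline were above all 6 others.

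IRAK2, a kinase of the complex that forms on the activated receptor, followed the ligands in direction with smaller changes (chromosome 3, 10164865 to 10243743, plus strand). It stood at 13.9 and 11.2 CPM in senescent cells with doxycycline and at 40.3 and 39.9 CPM in senescent cells without it. The proliferating libraries were at 9.35 and 9.17 CPM with doxycycline and at 14.6 and 14.5 CPM without. The 4 groups did not overlap, and senescent cells with doxycycline were below untreated proliferating cells.

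IRAK2 was 2.75-fold higher in senescent over proliferating cells without doxycycline (log2 1.46, SE 0.10, adjusted p = 7.67e-09 in edgeR's test) and 1.36-fold higher with it (log2 0.44, SE 0.11, adjusted p = 0.00324). The second of these calls was lost without senescent replicate 1 with doxycycline (log2 0.28, adjusted p = 0.0638). Doxycycline lowered it by 3.19-fold in senescent cells (log2 -1.67, SE 0.10, adjusted p = 5.82e-09), to 31.3% of its mean level, and by 1.57-fold in proliferating cells (log2 -0.65, SE 0.11, adjusted p = 0.000425). The difference of the doxycycline changes was log2 -1.02 (SE 0.15, adjusted p = 0.000276).

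For the agonists the same difference was log2 -2.16 for IL1A (95% interval -4.48 to 0.16, adjusted p = 0.177 in edgeR's test) and log2 -1.004 for IL1B (-2.36 to 0.35, adjusted p = 0.272). The doxycycline changes of IL1A and IL1B were thus not shown to differ between the states or to be alike. IL1A was called for this difference by DESeq2 (adjusted p = 0.00760) and in edgeR without robust estimation (0.0454). With any 1 library left out, the difference ran from log2 -2.69 to -1.74 for IL1A and from -1.29 to -0.71 for IL1B.

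**Figure D4:**
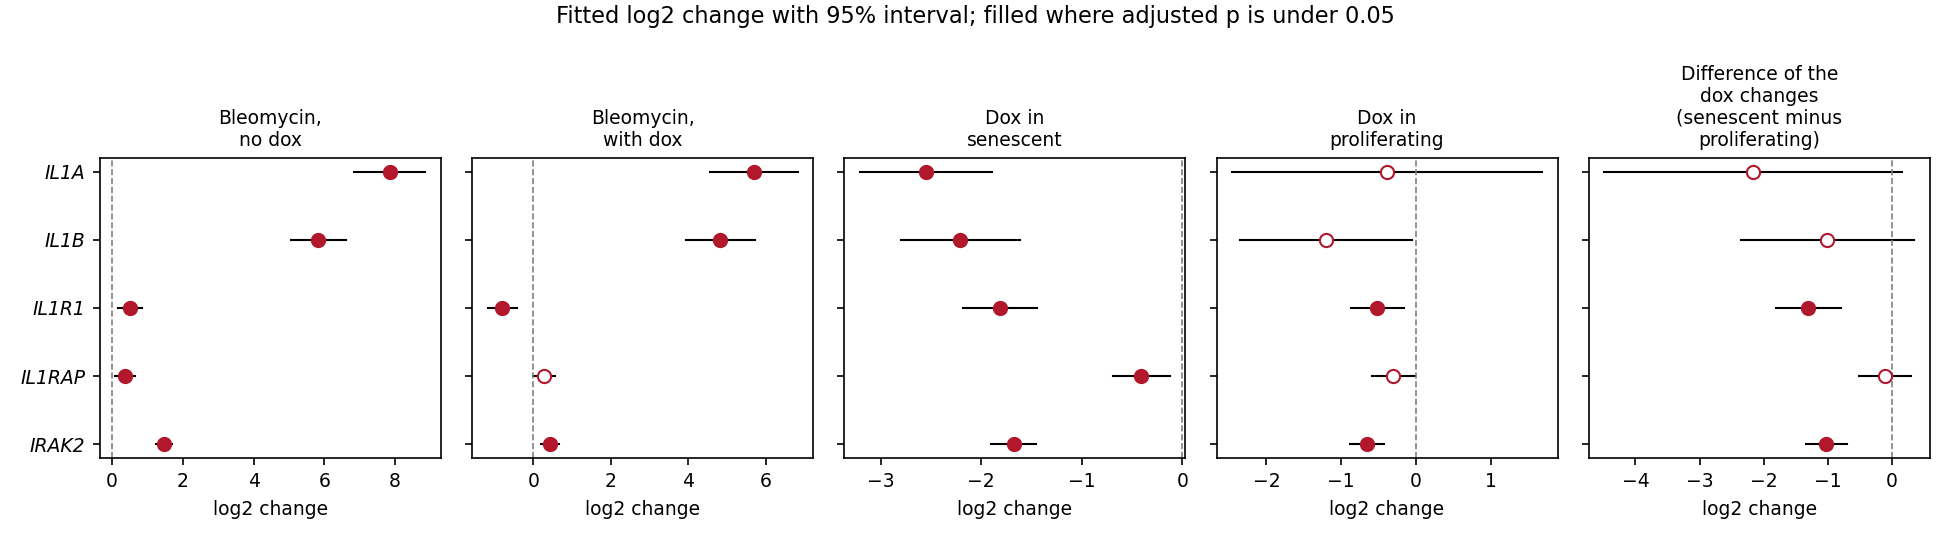
Fitted log2 changes of the 5 more abundant genes in 5 comparisons, each with its own axis, with 95% intervals from the fitted SE; filled dots have an adjusted p under 0.05. Dox stands for doxycycline, and each change is the first-named or treated group over its control. In senescent cells with over without doxycycline all 5 intervals lie below 0, from IL1A at -2.55 to IL1RAP at -0.41.

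Of the other ligand genes of the IL-1 family only IL18 passed the filter, through its libraries with doxycycline alone, and its counts went the other way. IL18, a cytokine that caspase-1 also matures, had 139 and 106 counts in senescent cells with doxycycline and 4 and 2 counts in senescent cells without it. In proliferating cells it had 60 and 75 counts with doxycycline and 2 and 3 without. In CPM that was 3.54 and 2.96, 0.112 and 0.0608, 1.76 and 1.82, and 0.0488 and 0.0751 in the same order. IL18 thus stood higher with doxycycline in both states, where IL1A and IL1B were lower or not called. Its fitted change was log2 5.17 in senescent cells (SE 0.38) and log2 4.79 in proliferating cells (SE 0.40). That rise was fixed by the filter, so no test of it is read. The 6 other ligand genes of the list did not pass the filter, and IL1R2, the decoy receptor, had 10 counts over the 8 libraries. SIGIRR, an inhibitory receptor of the family, was lower in senescent cells than in proliferating cells without doxycycline (5.09 ± 0.199 against 11.1 ± 0.432 CPM, log2 -1.12, adjusted p = 3.92e-06 in edgeR's test). IL1RAPL1, another receptor gene of the family, went the other way there (6.65 ± 1.17 against 2.70 ± 0.259 CPM, log2 1.30, adjusted p = 3.42e-05).

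Between the receptor and NF-kappaB, of 17 adaptors, kinases and ubiquitin enzymes 16 were tested, and 5 were higher and 6 lower in senescent over proliferating cells without doxycycline, a share near the 59.2% of all genes called and so no result about the list. The largest of these were the falls of PELI2, a ubiquitin ligase that binds IRAK kinases (log2 -1.98), and of the adaptor gene ECSIT (log2 -1.27). MYD88, the adaptor that IL-1 receptors recruit, was at 51.4 ± 4.41 CPM in senescent cells with doxycycline, at 75.3 ± 3.89 CPM in senescent cells without it and at 42.9 ± 0.406 CPM in untreated proliferating cells (SD, n = 2 each). It rose with senescence (log2 0.81, adjusted p = 5.94e-07) and fell with doxycycline in senescent cells (log2 -0.55, adjusted p = 6.65e-05). IRAK1, a partner of IRAK2, went the other way in both comparisons (log2 -0.40, adjusted p = 0.000830, and log2 0.34, adjusted p = 0.00454). IRAK3, an inhibitory kinase of the family, had 18 counts over all libraries. The IKK and NF-kappaB list rose in 10 and fell in 0 of 13 cases with senescence, beside 29.8% of all genes higher and 29.4% lower, with a median log2 change of 0.41 beside 0.01 over all genes tested. With doxycycline in senescent cells 1 was higher and 7 lower, beside 22.6% and 23.8% of all genes, with a median of -0.35 beside -0.00 over all genes tested. NFKBIA, the inhibitor that NF-kappaB itself induces, had the largest fall of the list there (log2 -1.17, adjusted p = 7.65e-08), at 55.5 ± 1.67 CPM with doxycycline against 125 ± 18.4 CPM without. RELA, the main activating subunit, was not called there (log2 0.05, adjusted p = 0.679).

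Of 20 genes known to respond to IL-1 in fibroblasts, 18 passed the filter, 4 of them (CCL20, CXCL1, CXCL3 and CXCL5) only through senescent libraries, so that their rise was fixed by the filter. In senescent over proliferating cells without doxycycline the other 14 gave 14 higher and 0 lower, beside 29.8% of all genes higher and 29.4% lower, with a median log2 change of 3.61 beside 0.01 over all genes tested. For doxycycline in senescent cells CXCL3 and CXCL5 passed only through the group without it. The other 16 gave 15 lower and 1 higher, PTGES, beside 22.6% of all genes higher and 23.8% lower, with a median of -1.67 beside -0.00 over all genes tested. The largest falls were those of the neutrophil chemokine gene CXCL1 (0.477 ± 0.0814 against 4.58 ± 0.373 CPM, log2 -3.25) and of IL6 (74.5 ± 20.6 against 643 ± 126 CPM, log2 -3.11). Next of the 16 was the cytokine gene LIF (log2 -2.22). The falls of the chemokine genes CXCL3 (log2 -2.67) and CXCL5 (-2.19) were fixed by the filter and are not ranked. That of CXCL5 ran from -2.48 to -1.93 with any 1 of the senescent libraries left out. In proliferating cells 3 were higher and 7 lower of 18, beside 12.6% of all genes higher and 10.4% lower. These genes also respond to other signals, and earlier results of these data were known when the list was drawn up.

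**Figure D5:**
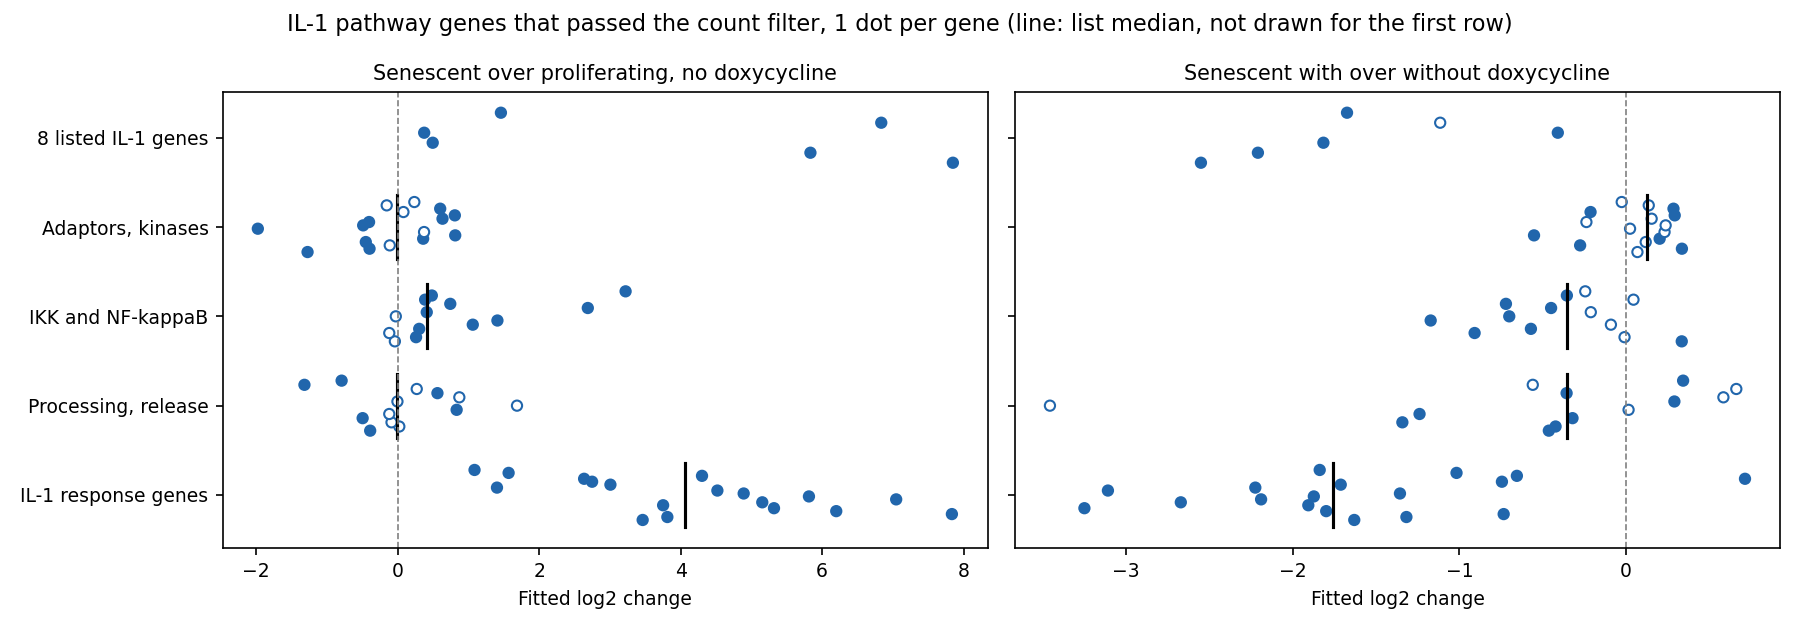
Fitted log2 changes (x axis) of the genes that passed the filter in 5 lists, 1 dot per gene, filled where the adjusted p is under 0.05, with the median as a line for each list except the 8 IL-1 genes. On the left, for senescent over proliferating cells without doxycycline, the adaptors and kinases scatter around 0 while the IL-1 response genes lie to the right, 4 of 18 having passed only through senescent libraries; on the right, for senescent cells with over without doxycycline, all but PTGES lie to the left, 2 of them having passed only through the group without doxycycline. The fitted changes of IL1RN, which passed the filter only through senescent libraries, and of CXCL5 on the left depend on the prior count because untreated proliferating cells had none.

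Among the genes that mature and release IL-1, GSDMD did not pass the filter without the group where it was higher and is left out. Of the other 12, 2 were higher, 4 lower and 6 not called with senescence, beside 59.2% of all genes called, and no result is read from that count. Doxycycline in senescent cells lowered 6 and raised 2 of them, beside 23.8% and 22.6% of all genes, a total of 8 that fell to 5 without senescent replicate 2 and to 4 without senescent replicate 1 with doxycycline. CASP1, the protease that cuts the IL-1 beta precursor, was at 11.0 ± 1.48 CPM in senescent cells with doxycycline and at 25.9 ± 1.36 CPM in senescent cells without it (log2 -1.24, adjusted p = 3.58e-07). It was not called in senescent over proliferating cells without doxycycline (log2 -0.12, adjusted p = 0.353). NLRP3, the sensor of a major inflammasome, stayed under 1 CPM on average in each group and was not called in either comparison. Protein maturation and secretion were not measured.

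Among markers of leukocytes, which make much IL-1 beta and IL1RN in tissue, 2 of 12 were above 1 CPM in any library, CD68 and CPA3. The pan-leukocyte gene PTPRC averaged at most 0.202 CPM in a group, TYROBP had 2 counts over all libraries, and none of the 12 was at 0 in every library. Their summed level, nearly all from CD68, a lysosomal protein gene that fibroblasts also express, was 65.6 to 66.0 CPM in senescent cells with doxycycline and 124 to 170 CPM in senescent cells without it. It was 56.3 to 58.4 CPM in proliferating cells with doxycycline and 69.7 to 72.9 CPM without. Of 8 endothelial markers 2 were above 1 CPM, TEK and VWF, with a sum of 97.1 to 107 CPM in senescent cells with doxycycline, 135 to 155 CPM in senescent cells without it, 45.8 to 50.7 CPM in proliferating cells with it and 69.1 to 70.5 CPM without. CPA3, a mast cell protease gene, stood at 0.865 and 1.26 CPM in senescent cells with doxycycline, 0.112 and 0.0304 CPM in senescent cells without it, 3.38 and 3.06 CPM in proliferating cells with it and 0 in both without. The 8 epithelial markers, mainly CDH1 and KRT14, summed to 1.98 to 2.49 CPM in senescent cells with doxycycline and 0.243 to 0.364 CPM in senescent cells without it. In proliferating cells the sum was 0.735 to 0.946 CPM with doxycycline and 0.0488 to 0.0501 CPM without. CDH1, KRT14 and CPA3 stood higher with doxycycline in both states. They passed the filter only through libraries with doxycycline, so that their rise was fixed by the filter and no test is read.

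The genes whose log2 CPM was most like that of each gene over the 8 libraries were taken from 9532 genes whose log2 CPM averaged 3 or more. For IL1A they were N4BP1, PPP1R3B and SLC39A6 (Pearson r 0.996 for each). For IL1B they were EPSTI1, OAS2 and DHRS3 (r 0.996 for each). IL1RN was most like NAMPT (r 0.998), RRAGB (0.997) and IL1A (0.995), over 9533 genes. It had no counts in any proliferating library, where its log2 CPM was set by the prior count, a small count added to every gene. Since IL1RN passed the filter only through senescent libraries, no likeness is read from its values. IL1R1 was most like LPIN1 (r 0.995), PARP4 (0.990) and APOBEC3C (0.989), IL1RAP most like PRKAR1A (0.975), SLC6A6 (0.975) and KREMEN1 (0.974), and IRAK2 most like ZNF436, TPST1 and CD44 (0.995 for each). Between the genes of the group, r was 0.992 for IL1B with IL1A, 0.774 for IRAK2 with IL1A and 0.163 for IL1R1 with IL1A. These values rest on 8 libraries that fall into 4 groups and carry no test.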

How the data were processed

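Stranded mRNA libraries from 8 RNA samples were sequenced, per the labels' protocols. The deposited table holds raw counts per gene, made by the authors with Trimmomatic 0.36, HISAT2 2.1.0 and featureCounts 1.6.3 on hg38, per the submitters' processing notes; the sources used here name neither the annotation nor the strand option of the counting. Groups came from the labels.

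Counts were filtered with edgeR's filterByExpr, scaled with TMM and tested over all 17155 genes kept with edgeR's quasi-likelihood test (edgeR 4.0.16, R 4.3.3, robust, 1 model over the 4 groups) and Benjamini-Hochberg adjustment at 0.05. Residual degrees of freedom were 4. The steps were tested on simulated data. The 5 contrasts were bleomycin without and with doxycycline, doxycycline in senescent and in proliferating cells, and the difference of the doxycycline changes. For genes with few counts, exact counting intervals (95%) and a floor of 3 counts over a group were used; they cover counting error only. Positions and exon overlaps came from GENCODE 29.

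Beside the 8 genes, up to 5 called genes with the largest changes per list were named, with set regulators such as IL18, CASP1 and MYD88 and, for each gene tested, the 3 most correlated genes. The members and lists were chosen with earlier results of these data known. Alternatives were other scalings, DESeq2 1.42.0, limma-voom (limma 3.58.1), other filters, replicate blocks, and each library left out.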

Additional observations from a re-analysis of the deposited data

Results flagged for a closer look

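The doxycycline change of IL1R1 differed between the states, being lower by log2 -1.30 in senescent than in proliferating cells (adjusted p = 0.00202, edgeR's quasi-likelihood test of the interaction). That of IRAK2 differed by log2 -1.02 (adjusted p = 0.000276). With 2 libraries a group, no library could be tested for standing apart.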

How the results depend on the processing

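No called value changed sign under the alternatives run. Among values called neither in the reported fit nor under the alternative, 4 values of the group did: IL1A for doxycycline in proliferating cells (log2 -0.39, and 0.14 without proliferating replicate 1) and IL1RAP for the difference of the doxycycline changes (-0.11, and 0.07 with total counts only, 0.08 without proliferating replicate 2 with doxycycline and 0.08 without senescent replicate 1 with doxycycline). So did 141 values of other listed genes. For single genes of the group, 484 values under alternatives kept their side of the threshold, 22 lost a call and 21 gained one. Doxycycline in proliferating cells gave 3938 calls over all genes and 2353 with a replicate block by the number in the descriptions. Leaving out 1 library at a time gave 2011 to 4155 calls there, lowest without proliferating replicate 2, and 1 to 3 of the 8 genes. The difference of the doxycycline changes gave 3407 calls over all genes, and 1852 to 3903 with 1 library left out, lowest without proliferating replicate 2. For that difference 2 of the 8 genes were called, and 4 with a replicate block by either the title or the description number, which added IL1A (adjusted p = 0.000613 and 0.00239) and IL1B (0.00476 and 0.0315). For doxycycline in proliferating cells these blocks also called IL1B (0.000276 and 0.00788), and the block by description number lost IL1R1 (0.0621). Titles and descriptions number the libraries differently, and residuals of libraries with the same title number correlated between -0.0121 and 0.159. With 2 libraries a group, these values cannot decide whether libraries with the same number shared a culture. Residuals by description number were not compared.

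Scaling by total counts only moved the median of all genes by log2 -0.17 for bleomycin without doxycycline, 0.17 for doxycycline in senescent cells and 0.18 for the difference of the doxycycline changes. The share of calls that were higher was then 37.1% against 50.3% in the fit reported, 69.3% against 48.7%, and 70.5% against 40.7%. Where 1 library is left out, the fit takes the remaining one to have the same spread as the other groups. Depth limits IL1RN, IL33 and IL1RL1 in all groups, and IL1A and IL1B in proliferating cells.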
